A study of Mus musculus with 5 samples.

Results

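Limb patterning transcription factors were measured in single cells of mouse synovial sarcoma (SyS), together with *En1*, a gene of limb patterning that stood at a high level in both biphasic tumors. The set was given by gene symbol and held *En1*, *Lmx1b*, *Tbx4*, *Tbx5*, *Pitx1*, *Tbx15*, *Hand2* and *Shox2*, which are 8 of the 32286 genes in the count matrices. *En1* was picked for its level in the biphasic tumors, so its levels are described here without a test. All 8 were found by symbol and all had counts in SyS cells.

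In the limb bud, transcription factors divide the tissue along its axes. *En1* acts in the ventral ectoderm, where it holds back the Wnt7a signal, and *Lmx1b* gives the mesenchyme on the dorsal side its identity. *Tbx5* marks the forelimb field, *Tbx4* and *Pitx1* the hindlimb field, *Hand2* the posterior margin that makes sonic hedgehog, and *Shox2* the proximal skeleton, while *Tbx15* acts in skeletal and dermal mesenchyme.

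The tumors came from *hSS2* mice, which carry human *SS18::SSX2* at the *Rosa26* locus, and all 5 carried the fusion. The fusion is turned on by TATCre protein, injected into the hindlimb of pups according to the study's methods. Any cell type reached by the protein could have recombined, and no group without the fusion was measured. Tumors were taken at morbidity and part of each was dissociated for droplet-based 3′ libraries that count RNA molecules by unique molecular identifiers (UMIs). The study gives a mixed strain background and a range of ages in months for its mice as a whole, with no age for each tumor. The labels named 2 tumors BP (biphasic, with gland-like epithelial structures) and 1 each MP (monophasic, spindle cells), MP+BP (both) and PD+MP (poorly differentiated and monophasic). Both BP labels share a leading number and may come from 1 animal, so n = 2 may overstate the independent animals.

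The 5 libraries held 51670 called cells and 89996321 to 118649103 UMIs each, and 39559 cells were kept after filters on genes, mitochondrial share and doublets. Cells were clustered, and 18 of 31 clusters (27569 cells) were called SyS-like from markers such as *Tle1* and *Sox2*; all 13 SyS markers had UMIs in the SyS-like cells of each tumor, where the markers summed to 3262 to 4288 CPM (UMIs scaled to the same total in each sum), against 158 to 332 CPM in stromal cells. Stromal cells (1394) were pericyte-like (1242) or fibroblast-like (152). Of the fibroblast-like cells, 123 lay in PD+MP, whose stromal sum held 40510 CPM of fibroblast markers and 3967 CPM of pericyte markers, against 2979 to 4841 and 16300 to 22320 CPM in the other tumors. Endothelial-like cells (2420) and macrophage-like cells (3867) served as further classes, and counts in macrophage-like cells as the measure of free RNA. Libraries shared 15 to 33 cell barcodes per pair, at most 0.302%.

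SyS-like cells of the tumors were spread unevenly over the clusters. The 4 largest SyS-like clusters of BP replicate 1 were clusters 0, 3, 20 and 16, those of BP replicate 2 were 0, 3, 12 and 16, those of MP 2, 4, 8 and 10, those of MP+BP 10, 6, 4 and 2, and those of PD+MP 7, 11, 15 and 17. The BP tumors thus shared clusters 0, 3 and 16, MP and MP+BP shared 2, 4 and 10, and PD+MP shared none of its 4. A single tumor gave over 50% of the cells in 17 of the 18 clusters and over 90% in 4. Clusters 0, 6, 16 and 21 had markers of another class among their 10 leading genes (*Acta2*, collagens or hemoglobins), so comparisons between tumors were also made without them. The MP, MP+BP and PD+MP groups have 1 tumor each and no replicate error. Intervals given for 1 tumor are exact 95% Poisson (levels) or binomial (shares) intervals, and they cover counting error only.

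All 8 genes are protein coding. In GRCm38 with the GENCODE M21 annotation, *En1* lies at chr1:120602418-120607992 (+ strand), *Lmx1b* at chr2:33560965-33640511 (−), *Tbx4* at chr11:85886422-85916097 (+), *Tbx5* at chr5:119832668-119885219 (+), *Pitx1* at chr13:55825051-55836192 (−), *Tbx15* at chr3:99240381-99354259 (+), *Hand2* at chr8:57320983-57324633 (+) and *Shox2* at chr3:66971727-66981771 (−). *Pitx1* overlaps *Gm28760* on its own strand, and *Lmx1b*, *Pitx1*, *Tbx15*, *Hand2* and *Shox2* overlap *Gm38011*, *Gm47071*, *Gm43120*, *Hand2os1* and *Rsrc1* on the opposite strand. The strand setting of the counting was not given in the sources used here, so reads of these overlapping genes may not be separable. *En1*, *Tbx4* and *Tbx5* overlap no other annotated gene.

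Promoter windows of 300 bases (250 before and 50 after the RefSeq start, GRCm38.p6) were found for 5 of the 8 genes, those of *Tbx5*, *Pitx1* and *Tbx15* being not used here. The windows of the 3 genes on which the results turn are shown 5′ to 3′ on the strand of the gene, namely *En1* (chr1:120602237-120602536, + strand), the most variable between tumors, *Lmx1b* (chr2:33641049-33641348, −), ordered the other way between tumors, and *Shox2* (chr3:66981722-66982021, −), the steadiest. CG dinucleotides are in capitals.
En1: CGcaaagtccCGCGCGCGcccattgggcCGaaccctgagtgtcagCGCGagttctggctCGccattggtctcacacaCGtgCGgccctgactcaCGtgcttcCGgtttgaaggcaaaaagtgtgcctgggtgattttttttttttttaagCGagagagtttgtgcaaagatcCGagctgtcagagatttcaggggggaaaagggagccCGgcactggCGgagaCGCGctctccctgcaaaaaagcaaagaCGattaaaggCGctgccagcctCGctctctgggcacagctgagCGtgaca
Lmx1b: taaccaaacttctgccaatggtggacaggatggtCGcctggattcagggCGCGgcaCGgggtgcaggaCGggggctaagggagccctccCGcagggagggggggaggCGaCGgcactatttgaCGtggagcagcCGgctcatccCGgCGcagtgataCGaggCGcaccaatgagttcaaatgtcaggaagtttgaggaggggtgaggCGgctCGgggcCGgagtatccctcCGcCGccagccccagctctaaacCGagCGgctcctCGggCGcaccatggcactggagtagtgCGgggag
Shox2: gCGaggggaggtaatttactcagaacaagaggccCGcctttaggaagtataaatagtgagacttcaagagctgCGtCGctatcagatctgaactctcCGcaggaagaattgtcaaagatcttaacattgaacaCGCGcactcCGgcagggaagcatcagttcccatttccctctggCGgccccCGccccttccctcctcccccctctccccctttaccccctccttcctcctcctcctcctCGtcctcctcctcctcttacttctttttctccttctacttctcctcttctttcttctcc
The *En1* window held 23 CG dinucleotides and the *Lmx1b* window 24, more than 78.5% and 80.0% of the 32851 mouse promoter windows, whose median was 7. The *Shox2* window held 11, more than 58.6% of all. The homeodomain core TAATTA, searched on both strands, occurred in the *Hand2* window alone among the 5 and in 5.29% of all windows, and the T-box core AGGTGT in none of the 5 and in 13.7% of all.

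*En1*, which encodes a homeodomain repressor, was at a high level in SyS-like cells of the biphasic tumors and close to 0 in those of the other tumors. It stood at 149.9 CPM (146.9 to 152.9) and 269 CPM in BP replicates 1 and 2, from 9643 and 24381 UMIs. It stood at 0.766 CPM in MP, 1.18 CPM in MP+BP and 0.596 CPM in PD+MP, from 57, 84 and 43 UMIs. The BP tumors thus lay far above the other 3, with a mean of 209 ± 83.9 CPM (SD, n = 2) against 0.847 ± 0.299 CPM (n = 3), 247-fold apart, which is the contrast *En1* was picked on. MP+BP, which also has BP in its label, was on the low side.

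The share of SyS-like cells with an *En1* UMI followed the same split. In cells thinned to 3000 UMIs, it was 31.5% and 45.8% in the BP tumors, and 61.1% and 73.5% before thinning, at median depths of 12176 and 9845 UMIs. In macrophage-like cells of the same tumors, which should lack the gene, the thinned share was 1.02% and 3.10%, at median depths of 6437 and 4641 UMIs before thinning. In MP, MP+BP and PD+MP the SyS-like share was 0.184%, 0.256% and 0.131%. None of 445, 420 and 831 thinned macrophage-like cells held a UMI there, which allows shares of up to 0.826%, 0.8745% and 0.443%. The low SyS-like shares thus could not be told apart from background at this depth. Thinning left out SyS-like cells below 3000 UMIs, and between 3526 and 6702 per tumor remained.

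Within the BP tumors, *En1* separated clusters. In the first BP tumor (replicate 1), clusters 0, 3, 12 and 16 stood at 183 to 232 CPM, and clusters 2, 6, 8, 10 and 20 at 7.49 to 23.3 CPM. In BP replicate 2, clusters 0, 3, 12, 16 and 22 stood at 262 to 315 CPM and clusters 6 and 21 at 8.82 and 13.0 CPM. No SyS-like cluster of at least 50 cells in the BP tumors lay between these bands, and smaller ones were not measured. The macrophage-like level was 3.55 and 13.8 CPM in the BP tumors, so the lower band of BP replicate 2 did not exceed that background. The endothelial-like level was higher than the macrophage-like one, at 5.725 and 17.47 CPM in BP replicates 1 and 2. In MP, MP+BP and PD+MP no SyS-like cluster exceeded 5.49 CPM, reached by cluster 20 of MP+BP.

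Stromal cells had *En1* in all 5 tumors, with less spread than SyS-like cells. The stromal level was 36.3 and 38.6 CPM in the BP tumors, 25.02 CPM in MP, 21.1 CPM in MP+BP and 25.04 CPM in PD+MP, from 20 to 69 UMIs. The BP tumors, which also had the macrophage-like and endothelial-like levels given above, lay above the other 3. Pericyte-like cells stood at 30.6 ± 7.18 CPM (SD, n = 4), and the fibroblast-like cells of PD+MP at 26.3 CPM. In MP, MP+BP and PD+MP, macrophage-like cells had no *En1* UMI and endothelial-like cells stood at 1.42, 0.907 and 0 CPM, so the stromal level was above the SyS-like, endothelial-like and macrophage-like levels there. Within a tumor, SyS-like cells stood 4.12-fold and 6.96-fold above stromal cells in the BP tumors and 32.7-fold, 18.0-fold and 42.0-fold below them in MP, MP+BP and PD+MP.

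**Figure D1:**
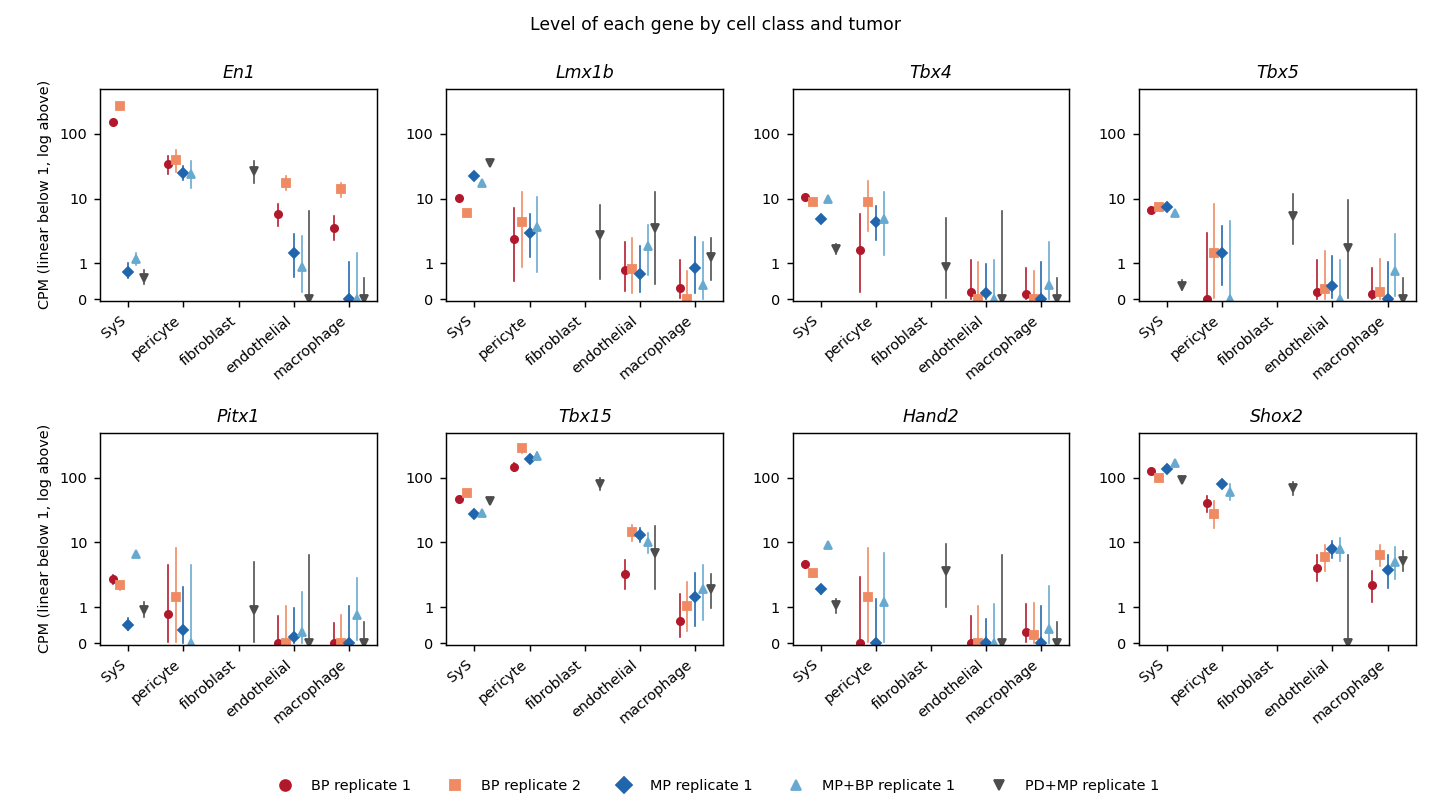
Level of the 8 genes (CPM of summed counts on an axis that is linear below 1 and logarithmic above) in SyS-like, pericyte-like, fibroblast-like, endothelial-like and macrophage-like cells, 1 point per tumor with at least 50 cells and its 95% Poisson interval. *En1* splits the SyS-like points into 2 tumors at 149.9 and 269 CPM and 3 at 0.596 to 1.18 CPM, while its pericyte-like points lie together.

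*Lmx1b*, which encodes the LIM homeodomain factor of the dorsal limb, was ordered the other way. SyS-like cells held 10.2 and 5.94 CPM in the BP tumors, 22.6 CPM in MP, 17.1 CPM in MP+BP and 35.3 CPM in PD+MP. The BP tumors were the lowest and PD+MP the highest. Both BP tumors lay below all others, as they did for 16.5% of the genes not used for clustering. The thinned share of SyS-like cells with a UMI ran in the same order from 1.87% in BP replicate 2 to 9.53% in PD+MP, against at most 0.254% of macrophage-like cells. Within tumors the SyS-like clusters differed by 2.38-fold to 5.27-fold, less than for *En1* in the BP tumors. In BP replicate 1 the highest clusters were 20 and 8 at 21.7 and 21.1 CPM, both in the lower band of *En1*, and the lowest was cluster 16 at 5.39 CPM, in its upper band. In BP replicate 2 the highest *Lmx1b* level was that of cluster 21, at 10.8 CPM.

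*Lmx1b* was higher in SyS-like than in stromal cells. The stromal level was 2.21 to 5.72 CPM from 3 to 8 UMIs per tumor, nearly level with the SyS-like value in BP replicate 2 (5.72 against 5.94 CPM), the endothelial-like level 1.53 ± 1.16 CPM (SD, n = 5) and the macrophage-like level 0.562 ± 0.495 CPM. SyS-like cells averaged 18.3 ± 11.5 CPM against 3.58 ± 1.40 CPM in stromal cells, and no tumor's value of one class overlapped those of the other. The log2 fold change over stromal cells was 2.05 (SE 0.48; edgeR adjusted p = 0.0115). Without MP, the adjusted p was 0.0546.

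The genes of the limb fields, *Tbx5*, *Tbx4* and *Pitx1*, stood at no more than 10.6 CPM in SyS-like cells of any tumor. *Tbx5* encodes the T-box factor of the forelimb field. It stood at 6.64 and 7.53 CPM in SyS-like cells of the BP tumors, 7.44 CPM in MP, 5.96 CPM in MP+BP and 0.374 CPM in PD+MP, the last from 27 UMIs. PD+MP stood far below the other tumors, which lay close to each other.

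In stromal cells *Tbx5* rested on 0, 1, 4, 2 and 6 UMIs, in the order BP replicate 1, BP replicate 2, MP, MP+BP and PD+MP. The stromal level of PD+MP was 4.42 CPM, 11.8-fold above its SyS-like level, and all 6 UMIs lay in its fibroblast-like cells. Over 5 tumors the log2 fold change of SyS-like over stromal cells was 0.97 (SE 1.02; edgeR adjusted p = 0.511), with 4 tumors on the higher side. Without PD+MP it was 2.30 (edgeR adjusted p = 0.00873), so this tumor decided the call. Against pericyte-like cells alone (38 in PD+MP), it was 2.78 (edgeR adjusted p = 0.00294).

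*Tbx4* encodes the T-box factor of the hindlimb field. Its SyS-like level was 10.6 and 8.98 CPM in the BP tumors, 9.82 CPM in MP+BP, 4.78 CPM in MP and 1.66 CPM in PD+MP. The 3 tumors with BP in the label lay above the 2 without, as they did for 15.4% of the genes not used for clustering. The stromal level was 4.22 ± 2.98 CPM (SD, n = 5) from 27 UMIs in all and overlapped the SyS-like level of 7.17 ± 3.81 CPM, and endothelial-like and macrophage-like cells were near 0 (0.0764 and 0.108 CPM). The difference between SyS-like and stromal cells did not pass the test (log2 fold change 0.50, SE 0.45; edgeR adjusted p = 0.444).

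*Pitx1* encodes the homeodomain factor upstream of *Tbx4* in the hindlimb. The SyS-like level was 2.69 and 2.16 CPM in the BP tumors, 6.61 CPM in MP+BP, 0.511 CPM in MP and 0.929 CPM in PD+MP. As for *Tbx4*, and for 15.4% of the genes not used for clustering, the tumors without BP in the label were lowest. Each stromal sum held a single UMI, so no ratio to stromal cells is given, and the test did not call the gene (edgeR adjusted p = 0.201). In thinned cells, 1.95% of the SyS-like cells of MP+BP held a *Pitx1* UMI and 0.230% of those of MP, where 1 of 420 (0.238%) and 0 of 445 macrophage-like cells did. The 0 allows a share of up to 0.826%, so the share in MP could not be told apart from background at this depth.

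*Hand2* encodes a basic helix-loop-helix factor. Its SyS-like level was 4.65 and 3.32 CPM in the BP tumors, 9.01 CPM in MP+BP, 1.88 CPM in MP and 1.07 CPM in PD+MP. As for *Pitx1*, MP+BP was highest and the tumors without BP in the label lowest. The tumors without BP in the label were lowest for 15.4% of the genes not used for clustering. Stromal cells held 2.37 ± 1.67 CPM (SD, n = 5) from 14 UMIs, with no UMI in MP, and endothelial-like cells held none in any tumor. The test against stromal cells did not call it (log2 fold change 0.47, SE 0.68; edgeR adjusted p = 0.644). Against pericyte-like cells alone, which held 2 UMIs in the 4 tumors with at least 50 such cells, edgeR gave an adjusted p of 0.00676.

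*Hand2* and *Pitx1* were highest in the same clusters in each tumor. Clusters 6 and 21 were set apart for having the highest median *Hand2* level over the tumors, so the *Hand2* values in them are a description. Cluster 6 (2231 cells) was led by *Sst* (somatostatin) and *Col1a1*, and cluster 21 (480 cells) by *Mgp* (matrix Gla protein) and *Cartpt*. *Hand2* in cluster 6 was 43.4 and 30.2 CPM in the BP tumors, 36.2 CPM in MP (18 UMIs), 30.3 CPM in MP+BP and 38.5 CPM in PD+MP. The medians of the other SyS-like clusters were 3.35, 1.44, 1.60, 2.93 and 0.215 CPM in the same order. Cluster 21, which had 50 cells or more in 3 tumors, held 34.6 CPM in BP replicate 2, 46.7 CPM in MP+BP and 40.4 CPM in PD+MP. Outside both, the highest cluster was cluster 10 of MP, at 24.9 CPM. The pattern was not limited to *Hand2* and *Pitx1*. *Shox2* was also highest in cluster 6 or 21 of each tumor. It reached 179.5, 166.6, 209.1, 272.7 and 174.7 CPM there, in the same order, against at most 171.7, 100.3, 204.5, 183.4 and 98.5 CPM elsewhere. By level alone, so was *Tbx4* in every tumor but BP replicate 1, where another cluster was level with cluster 6 at 14.45 CPM.

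*Pitx1* in cluster 6 was 23.3 and 14.6 CPM in the BP tumors, 12.1 CPM in MP (6 UMIs), 22.5 CPM in MP+BP and 28.8 CPM in PD+MP. The medians of the other clusters were between 0.313 and 3.42 CPM. The PD+MP tumor, lowest but one for the gene as a whole, held 24 and 18 of its 67 UMIs in clusters 21 and 6, and no other cluster of at least 50 cells was above 0.509 CPM. *Tbx15* was also highest in clusters 6 and 21 of that tumor, and *Tbx5* in cluster 21. *Tbx15* stood at 143 and 164 CPM in clusters 6 and 21 against at most 53.8 CPM elsewhere. *Tbx5* stood at 9.50 CPM in cluster 21, against at most 0.417 CPM outside both clusters. Its 1.60 CPM in cluster 6 rested on too few UMIs to be ranked. *Lmx1b* went the other way in these clusters of PD+MP, at 10.7 and 14.4 CPM against 24.99 to 56.3 CPM.

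Clusters 6 and 21 also held 2192 to 5463 CPM of the 10 fibroblast markers, where other SyS-like clusters held at most 699 CPM. EGFP, the reporter carried with the fusion, stood at 24.9 to 39.6 CPM in them and at 22.9 to 59.5 CPM in the other SyS-like clusters, against 2.51 ± 1.91 CPM (SD, n = 5) in stromal cells. By tumor, EGFP was below the other clusters in PD+MP (24.9 to 27.2 against 30.5 to 40.7 CPM). In MP+BP it was above them (37.6 to 39.4 against at most 34.4 CPM), and elsewhere the ranges overlapped. The SyS markers summed to 1220 CPM in BP replicate 1 and 733.5 to 939.9 CPM in BP replicate 2. The other clusters there held at least 1832 and 2942 CPM. In MP, MP+BP and PD+MP the ranges of this sum overlapped. The part of the fibroblast markers in these levels was not tested. Without clusters 0, 6, 16 and 21, 5 of the 40 SyS-like levels moved by over 1.5 times. *Hand2* was then 1.46 CPM in BP replicate 2, 4.097 CPM in MP+BP and 0.269 CPM in PD+MP, and *Pitx1* 3.14 CPM in MP+BP and 0.354 CPM in PD+MP. All 5 values were lower than with these clusters.

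**Figure D2:**
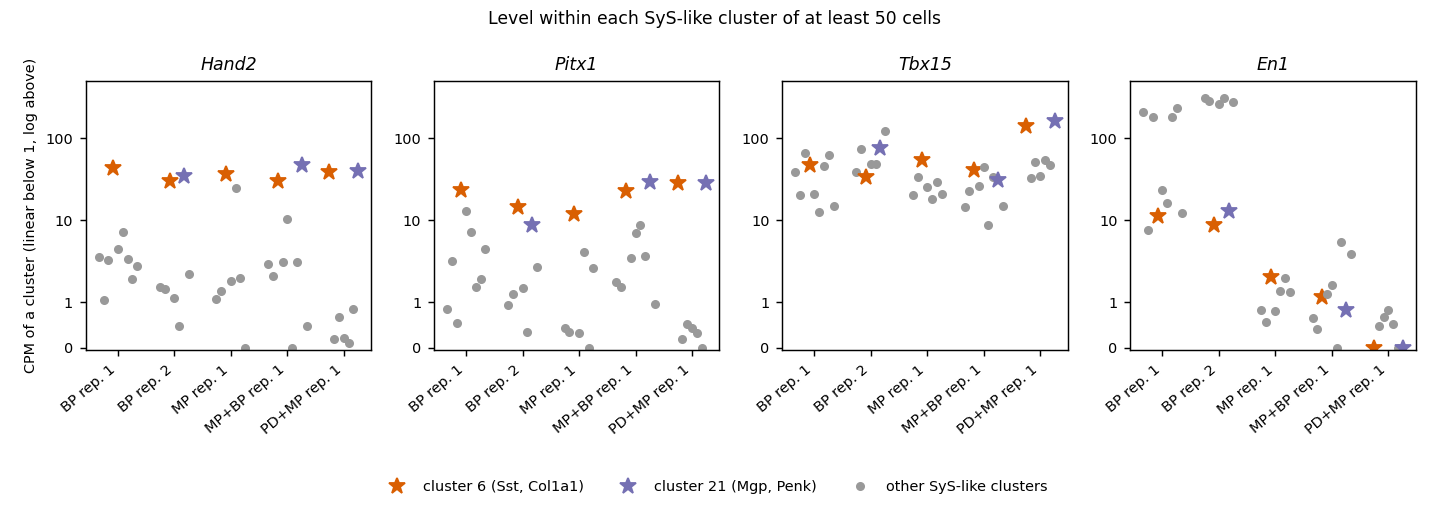
Level of *Hand2*, *Pitx1*, *Tbx15* and *En1* (CPM on an axis that is linear below 1 and logarithmic above) in each SyS-like cluster of each tumor, 1 point per cluster of at least 50 cells, with stars for clusters 6 and 21. The starred clusters were picked for their *Hand2* level. *Hand2* and *Pitx1* are highest at the stars in each tumor, *Tbx15* only in MP and PD+MP, and the *En1* points of the BP tumors form an upper and a lower band.

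*Tbx15*, a T-box gene of skeletal and dermal mesenchyme, was lower in SyS-like than in stromal cells of every tumor. The SyS-like level was 47.4 and 58.6 CPM in the BP tumors, 27.5 CPM in MP, 28.3 CPM in MP+BP and 43.2 CPM in PD+MP. The stromal level was 143 and 279 CPM in the BP tumors, 194 CPM in MP, 194 CPM in MP+BP and 83.2 CPM in PD+MP. The classes did not overlap, and PD+MP, with its mostly fibroblast-like stroma, had the smallest gap.

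The log2 fold change of *Tbx15* was −2.33 (SE 0.30; edgeR adjusted p = 0.000584). Pericyte-like cells were the highest class at 211 ± 56.5 CPM (SD, n = 4), fibroblast-like cells of PD+MP stood at 79.8 CPM, and endothelial-like and macrophage-like cells at 9.53 ± 4.54 and 1.38 ± 0.560 CPM. Against those last classes the direction turned, with a log2 fold change of 1.85 over endothelial-like cells (edgeR adjusted p = 0.00225) and 4.37 over macrophage-like cells (edgeR adjusted p = 6.65e-07). *Tbx15* thus ranked between stromal and endothelial-like cells in the SyS-like class of each tumor.

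*Shox2*, the homeobox gene of the proximal limb skeleton, was present in SyS-like cells of all 5 tumors. It stood at 126 and 100.2 CPM in the BP tumors, 136 CPM in MP, 172 CPM in MP+BP and 91.6 CPM in PD+MP, with 1.88-fold between the highest and the lowest tumor, the narrowest spread of the 8. The thinned share of cells with a UMI was 23.3% to 37.7%, against 0.674% to 1.99% in macrophage-like cells. The stromal level was 56.3, 31.5, 80.9, 71.9 and 58.2 CPM in the same order, below the SyS-like level in each tumor.

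The log2 fold change of *Shox2* over stromal cells was 0.83 (SE 0.20; edgeR adjusted p = 0.0139). Leaving out BP replicate 1 gave an adjusted p of 0.0539 and leaving out MP+BP 0.0530, and without both BP tumors it was 0.166, with log2 fold changes of 0.81, 0.79 and 0.60. Endothelial-like cells stood at 5.17 ± 3.30 CPM and macrophage-like cells at 4.47 ± 1.58 CPM (SD, n = 5).

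**Figure D3:**
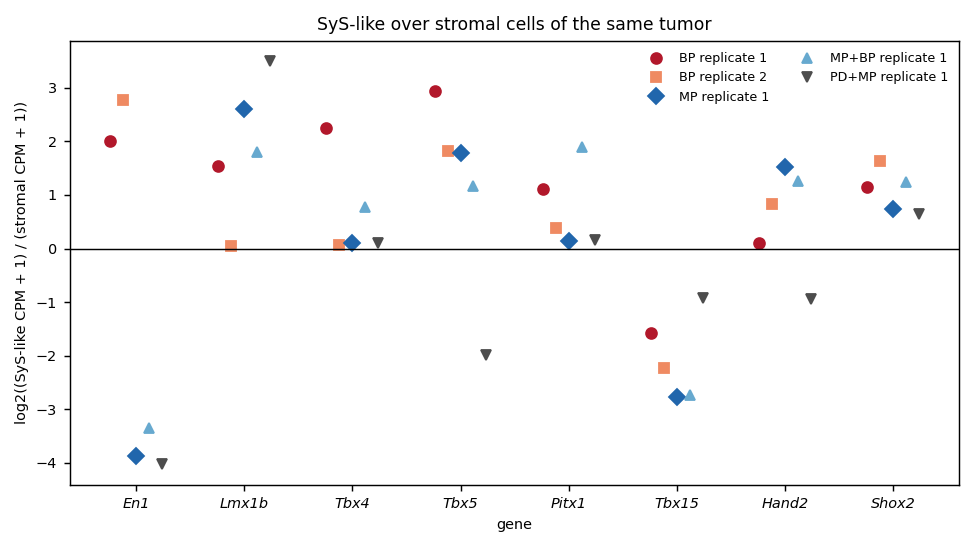
Ratio of SyS-like to stromal level, as log2 of CPM with 1 CPM added, for each gene and tumor (1 point each). *Tbx15* lies below 0 in all 5 tumors and *Shox2* above 0 in all 5 (0.65 to 1.64), while *En1* lies at 2.01 and 2.77 in the BP tumors and at −4.03 to −3.35 in the others.

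Of the 8 genes, 2 were called higher in SyS-like than in stromal cells (*Lmx1b*, *Shox2*) and 1 lower (*Tbx15*), and *En1*, whose fitted value is only a description, is counted among the other 5. Over 15709 genes not used for clustering, 17.3% were called higher and 9.24% lower. With so few genes, 2 and 1 of 8 cannot be told apart from that background. Their median log2 fold change, *En1* included, was 0.66, against 0.17 over all genes tested.

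Other limb genes were taken from a list of 68 in 4 groups by role. Of 61 tested, 38 were called higher in SyS-like than in stromal cells and 6 lower, with a median log2 fold change of 1.67. Over the 15709 genes not used for clustering, 17.3% were called higher and 9.24% lower, and the median over all genes tested was 0.17. These shares also stand beside each group count below. The list was chosen with earlier results of these data known, so its counts are a description. Among the dorsoventral and apical ridge genes, 12 of 17 were called higher and none lower (median 2.35). They included *En2*, the paralog of *En1*, with a SyS-like mean of 121 ± 26.4 CPM (SD, n = 5) and a log2 fold change of 3.11 (edgeR adjusted p = 0.000116), and *Lmx1a*, the paralog of *Lmx1b*, at 62.4 ± 17.3 CPM with 3.10 (edgeR adjusted p = 0.00489). In contrast to *En1*, *En2* stood at 114 and 155 CPM in the BP tumors, 131 CPM in MP, 122 CPM in MP+BP and 82.7 CPM in PD+MP, with no split by label. The ridge signal *Fgf8* (3.41) and the homeobox genes *Msx1* (2.18), *Msx2* (2.35) and *Dlx6* (4.203) were also called higher, as were *Wnt3* (3.96) and *Sp8* (3.63), values being log2 fold changes. *Wnt7a*, which *En1* represses in the limb, had no stromal UMI and only 0.604 ± 0.286 CPM in SyS-like cells (edgeR adjusted p = 0.129), with 0.357 and 0.419 CPM in the BP tumors, 0.417 CPM in MP, 0.856 CPM in MP+BP and 0.970 CPM in PD+MP.

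Among outgrowth and limb field genes, 11 of 17 were called higher and 1 lower (median 2.68). Those called higher included the LIM homeobox genes *Lhx2* (3.32) and *Lhx9* (3.16), *Meis1* (2.68) and *Meis2* (1.37), *Sall1* (3.85) and *Sall3* (3.91), and *Sall4*, which had no stromal UMI and 3.17 ± 2.16 CPM in SyS-like cells. *Prrx1*, a homeobox gene of limb mesenchyme, was the gene called lower (−2.98; edgeR adjusted p = 7.21e-05). *Twist1* (−0.35; edgeR adjusted p = 0.340) and *Fgf10* (1.45; edgeR adjusted p = 0.212) were not called.

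Among anteroposterior genes, 12 of 14 were called higher and none lower (median 1.48). *Shh*, which *Hand2* helps to switch on in the limb bud, had a SyS-like mean of 14.4 ± 3.51 CPM (SD, n = 5) and a log2 fold change of 4.36 (edgeR adjusted p = 0.00113). *Alx1* (3.44, with 1 stromal UMI) was called higher, *Alx4* was not (−0.29; edgeR adjusted p = 0.816), and *Hand1* had too few counts to be tested.

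The relatives and neighbors of the members went both ways, with 3 of 13 called higher and 5 lower (median −0.98). *Tbx18*, a T-box gene of mural cells (−5.25; edgeR adjusted p = 2.96e-05), *Meox2* (−7.23; edgeR adjusted p = 0.000169) and *Meox1* (−3.49; edgeR adjusted p = 0.0247) were lower in SyS-like cells, like *Tbx15*. *Tbx2* (−0.98; edgeR adjusted p = 0.180) and *Tbx3* (0.42; edgeR adjusted p = 0.522) were not called.

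**Figure D4:**
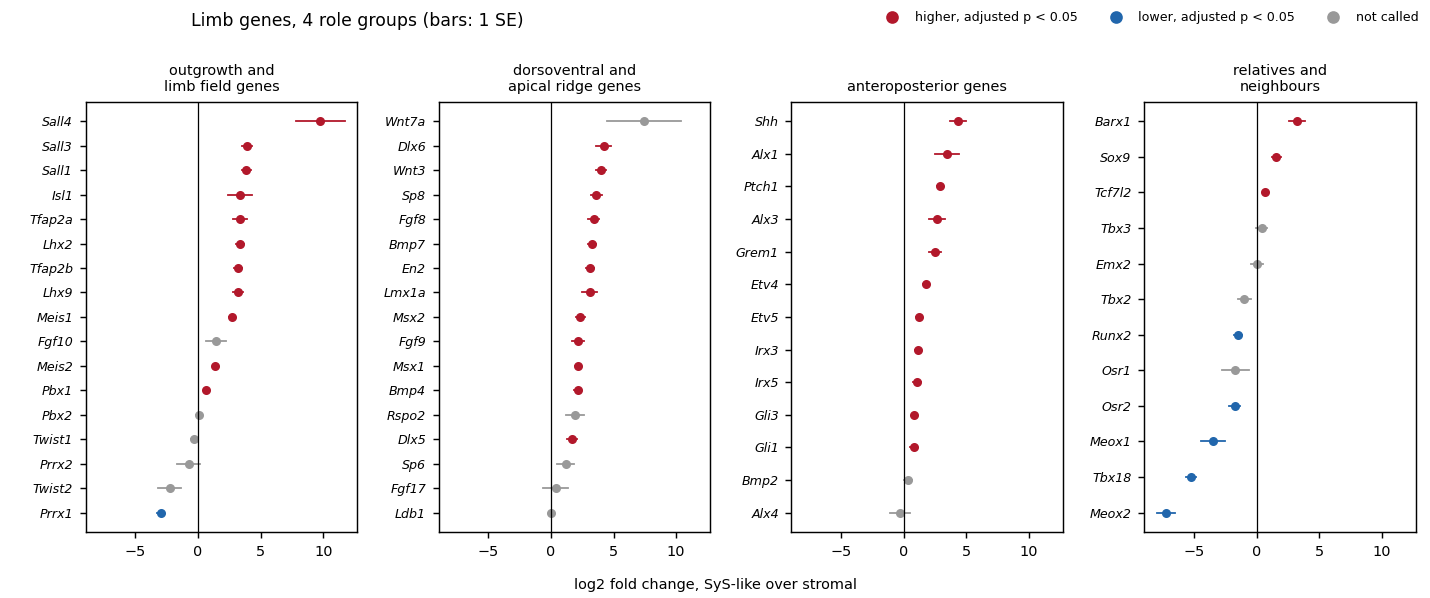
Log2 fold change of SyS-like over stromal cells for the tested genes of the limb list that are reported here, by role, 1 point per gene with a bar of 1 SE, in red for genes called higher by edgeR, blue for lower and gray for not called. Most genes of the first 3 roles lie above 0 (medians 2.68, 2.35 and 1.48) and most relatives below it (median −0.98). The positions of *Sall4* and *Wnt7a* depend on the count added in the fit, since neither had a stromal UMI.

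Between histologies, no gene among those not used for clustering passed the edgeR test. Comparing the 3 tumors with BP in the label with the 2 without asks whether a gene goes with biphasic histology. Of 18187 genes not used for clustering, 0.0% were called by edgeR in either direction. An unadjusted edgeR p under 0.05 was reached by 756 of them on the higher and 852 on the lower side. DESeq2 called 270 of the genes not used for clustering higher and 81 lower. None of the members was called by edgeR.

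Without *En1*, 3 of 7 members had all values of the BP-containing side above those of the other side. Of the genes not used for clustering, 15.4% did. In 1 of 7 members all values lay below, as in 11.1% of those genes. *Tbx4* was 9.79 ± 0.8003 CPM (SD, n = 3) against 3.22 ± 2.21 CPM (n = 2; log2 fold change 1.52, edgeR adjusted p = 0.459), *Pitx1* 3.82 ± 2.43 against 0.720 ± 0.296 CPM (2.30, edgeR adjusted p = 0.459) and *Hand2* 5.66 ± 2.98 against 1.47 ± 0.576 CPM (1.84, edgeR adjusted p = 0.459). *Lmx1b* was on the lower side, at 11.1 ± 5.66 against 29.0 ± 8.99 CPM (−1.49, edgeR adjusted p = 0.459). *Tbx5*, *Tbx15* and *Shox2* overlapped between the sides (edgeR adjusted p = 0.819 to 0.891). DESeq2 gave adjusted p = 0.0167 for *Pitx1* and 0.0325 for *Hand2*. Without clusters 0, 6, 16 and 21, *Hand2* in BP replicate 2 was 1.46 CPM, below the 1.61 CPM of MP, so its sides then overlapped.

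Setting the 2 BP tumors against the other 3 uses the same tumors in another grouping. Again 0.0% of the 18187 genes not used for clustering were called by edgeR. Among genes not used for clustering, an unadjusted edgeR p under 0.05 was reached by 784 and 690, and DESeq2 called 278 and 157. Of the 7 members, 1 had both BP tumors above all others, where 15.1% of the genes not used for clustering did. Another 1 had both below, where 16.5% did. *Tbx15* was 53.0 ± 7.93 CPM (SD, n = 2) against 33.0 ± 8.86 CPM (n = 3; log2 fold change 0.65, edgeR adjusted p = 0.584). *Lmx1b* was 8.05 ± 2.99 against 25.1 ± 9.34 CPM (−1.69, edgeR adjusted p = 0.504; DESeq2 adjusted p = 0.0248). The other 5 overlapped, *Hand2* at 3.98 CPM on both sides.

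In single cells of the BP tumors, *En1* was mostly found apart from *Pitx1* and *Hand2*, but not from *Tbx15* and *Tbx5*. Of thinned SyS-like cells with an *En1* UMI in BP replicate 1, 0.180% held a *Pitx1* UMI, against 1.24% of those without. In BP replicate 2 these shares were 0.261% and 1.29%. For *Hand2* they were 0.812% and 1.70% in BP replicate 1 and 0.456% and 2.06% in BP replicate 2. *En1* and *Tbx15* UMIs were seen together in 154 and 440 cells of the BP tumors, where the product of the single shares gives 130 and 401. For *Tbx5* the counts were 33 and 78 against 23.0 and 69.6, and for *Tbx4* 26 and 72 against 29.6 and 70.5. *Lmx1b* and *Shox2* lay below the product in both BP tumors. Their counts were 17 and 54 against 25.2 and 57.2 for *Lmx1b*, and 285 and 747 against 330.2 and 781.7 for *Shox2*. *Tbx4* and *Pitx1*, both hindlimb genes, were seen together in 1 thinned cell over all 5 tumors, at the low depth these genes have. Cells of 1 tumor are not replicates, and these counts are given without a test.

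The genes whose level over 34 sums of tumor and class was most like that of a member were ranked by Pearson's r of log2(CPM + 1) among 14962 genes, as a description, since the sums share tumors and depth. For *En1* they were *Meioc* (0.887), *Dnah7b* (0.867), *Eda2r* (0.858), *Tafa5* (0.841) and *Ptprq* (0.835). *Meioc*, a meiosis gene, stood at 9.14 and 11.7 CPM in SyS-like cells of the BP tumors and at 0.166 to 0.210 CPM in the others, the same split as *En1*. The split was less marked for *Eda2r*, at 9.71 and 11.59 CPM in the BP tumors and 6.61 CPM in PD+MP. *Dnah7b* stood at 25.3 and 24.57 CPM in the BP tumors and 4.42 CPM in PD+MP. *Tafa5* and *Ptprq* reached at most 2.30 and 1.89 CPM outside the BP tumors, both in MP+BP. For *Lmx1b* they were *Ybx2*, *Katnal2* and *Gm19426* (0.876 to 0.901), for *Tbx15* *Dzip1l*, *Cacna1c* and *Cacna2d1* (0.938 to 0.951), and for *Shox2* *Col16a1*, *Dact1* and *Casc4* (0.914 to 0.924). For *Tbx4* they were *Gm42679*, *Gm11444* and *Ube2u* (0.912 to 0.928).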

How the data were processed

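The 5 tumors were profiled as single cells. Per the file headers, the authors made the deposited raw UMI counts with Cell Ranger 7.2.0 (filtered matrices, mm10 per the labels), neither normalized nor corrected for free RNA. The annotation release was not given in the sources used here. Of 32286 features, 32235 matched GENCODE M21.

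Cells with at least 750 genes and at most 25% mitochondrial counts were kept (42516). Doublets were the highest Scrublet scores (scanpy 1.11.5) up to an expected share of 5.35% to 8.27% per tumor (2957 removed). The 3000 most variable genes by Pearson residuals (theta 100), without members, limb list, sex-linked, mitochondrial, ribosomal and hemoglobin genes, gave 30 principal components and, with 20 neighbors, Leiden clusters at resolution 1 (leidenalg 0.10.2). A class name needed at least 3 markers, each at 3 times the 25th percentile of clusters, 25% of the highest cluster and in 5% of cells. A cluster stayed unnamed if its 10 leading genes over clusters of other classes held more markers of another class, or if its median UMI count was under 33.3% of its tumors' and none of its own markers was among its 10 leading genes over all other clusters. The 3 unnamed clusters (3305 cells) fell under the UMI condition. The condition on leading genes was revised after a first form, taken over all other clusters, had left SyS clusters unnamed, and clusters 0, 6, 16 and 21 go against it in that first form.

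Counts were summed per tumor and class (SyS-like sums 64350692 to 90760020 UMIs, stromal sums 699281 to 2757352) and tested with edgeR 4.0.16 (R 4.3.3; TMM, filterByExpr, quasi-likelihood, Benjamini-Hochberg over all genes tested, adjusted p under 0.05), with the tumor as a block for SyS-like against stromal, as both classes of a pair come from 1 tumor. The alternatives were DESeq2 1.42.0, other scalings, filters, classes and clusterings, and leaving out tumors. The tests were tried on simulated counts.

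CPM is the UMI count of a gene over that of its sum, scaled to a common total. The text names the 8 members, 20 limb genes of a set list, up to 10 limb genes with the largest called change in the same direction in all 5 tumors, and the genes most like a member (5 for *En1*, 3 for others with at least 10 CPM). Members and lists were chosen with earlier results of these data known. Some genes of the limb list are counted but not reported here by name.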

Additional observations from a re-analysis of the deposited data

Results flagged for a closer look

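The SyS-like over stromal ratio of *En1* pointed in opposite directions in the tumors. With 1 CPM added, the log2 ratio was 2.01 and 2.77 in the BP tumors and −4.03 to −3.35 in MP, MP+BP and PD+MP, and the group means lay 6.14 apart on the log2 scale. All tumors of one group were on one side of 0 and all of the other group on the other. The difference was not tested, since *En1* was picked for its level in the BP tumors. The stromal level entering the ratio was 21.1 to 38.6 CPM in all 5 tumors.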

How the results depend on the processing

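All counts of called genes in this paragraph cover genes not used for clustering. With no tumor block, 2897 genes were called higher and 1605 lower in SyS-like than in stromal cells, against 2722 and 1452 with it. The *En1* value was then 1.31 in place of −2.60 on the log2 scale. Pairing comes from the shared tumor. The count of genes called higher was 4575 without TMM, 1235 with at least 10 counts in every sum, 1451 after thinning SyS-like sums to the stromal depth, 5010 against endothelial-like and 5854 against macrophage-like cells, and 1759 to 3264 with 1 tumor left out. Genes called lower numbered 945, 2953 and 3522 with at least 10 counts and against endothelial-like and macrophage-like cells, and 992 to 1798 with 1 tumor left out. Without both BP tumors, chosen after seeing the data, 847 and 535 were called. Between histologies, DESeq2 called 270 and 81, and leaving out 1 tumor gave 0 to 314 and 0 to 191, the highest without MP, where *Tbx4* (2.44, adjusted p = 0.0394) and *Tbx5* (4.05, 0.0339) were called. For BP against other labels, DESeq2 called 278 and 157, no filter gave 2 higher, and leaving out 1 tumor gave 0 to 5 and 0 to 1. Log2 fold changes reversed in sign for *Tbx15* against endothelial-like (1.85) and macrophage-like cells (4.37), *Tbx5* against stromal cells without both BP tumors (−0.0671), *Hand2* there without clusters 0, 6, 16 and 21 (−0.493; also chosen after seeing the data), *Tbx5* (−0.189) and *Shox2* (−0.0949) by histology without PD+MP, *Shox2* without MP+BP (−0.0756; up to 0.41 without MP), *Tbx15* without MP (−0.0498; up to 0.67 without PD+MP), and for BP against the rest *Pitx1* without MP+BP (1.68; down to −0.60 without MP) or those clusters (0.589) and *Hand2* without TMM (−0.0014), with doublets (−0.0508) and without BP replicate 1 (−0.163), MP (−0.300) or PD+MP (−0.396; up to 1.37 without MP+BP). The causes were not tested. Counting the endothelial-like and macrophage-like comparisons among the alternatives, *Lmx1b* was called in 16 of 17, *Tbx15* in 19 of 19 and *Shox2* in 15 of 19. For *Tbx15*, the calls against endothelial-like and macrophage-like cells were in the opposite direction. *Lmx1b*, *Tbx4*, *Tbx5*, *Pitx1* and *Hand2* had too few stromal counts to be tested with at least 10 counts in every sum or after thinning. Depth limits these 5 most, with 5 to 27 stromal UMIs in all.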

Other observations

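Clusters left without a name held the members too. In the 4 tumors with at least 50 such cells, *En1* averaged 80.5 ± 103 CPM, with a lowest value of 0.475 and a highest of 217 CPM, and *Shox2* averaged 86.0 ± 23.9 CPM. EGFP stood there at 17.3 ± 4.08 CPM, below the SyS-like mean of 35.3 ± 4.53 CPM (SD, n = 5) and above the stromal mean. In 2 of these 3 clusters SyS was the class with the most markers.

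*Fgf10*, the mesenchymal signal of limb outgrowth, varied between SyS-like cells of the tumors, at 21.9 and 24.6 CPM in the BP tumors, 75.04 CPM in MP, 72.4 CPM in MP+BP and 12.9 CPM in PD+MP. *Tbx3*, a T-box gene of the limb margins, had the reverse place for MP, with 86.1 and 93.5 CPM in the BP tumors and 53.8 CPM in MP+BP, against 7.42 CPM in MP and 16.4 CPM in PD+MP. Neither was called between histologies by edgeR.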
